A study of Mus musculus with 10 samples.

Results

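The comparison described here set 3 WT libraries (replicates 2, 4 and 5) against 5 *Zfp36*ΔARE libraries (replicates 1 to 5), 8 of the 10 libraries of the experiment. They were chosen by their hair transcripts: the mean log2(CPM + 1) over the 54 genes whose symbols start with Krtap, which encode keratin-associated proteins of the hair shaft, was under 4 in WT replicates 1 and 3 and above 5 in the other 8 libraries. CPM are counts scaled to the same total in every library. RNA came from full-thickness back skin of C57BL/6 mice, 1 library per mouse, taken from treated skin without a tumor. Every mouse, WT or *Zfp36*ΔARE, received 400 nmol of the mutagen DMBA once, from 7 weeks of age, and then 10 nmol of the phorbol ester TPA at 2 applications a week for 20 weeks, so neither group is untreated skin. *Zfp36*ΔARE mice lack an instability element in the 3′ untranslated region (3′ UTR) of the endogenous *Zfp36* gene, so the allele acts in every cell of the body, and the controls were littermates. The sex of the mice is not given in the labels. For each gene below, values are normalized counts (counts scaled by edgeR's TMM factors to a common library size), written for WT replicates 2, 4 and 5 and then for *Zfp36*ΔARE replicates 1 to 5.

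*Zfp36* encodes tristetraprolin (TTP), a zinc finger protein that binds AU-rich elements in the 3′ UTR of mRNAs and recruits the machinery that removes their poly(A) tails, which leads to their decay. Cytokine and chemokine mRNAs are its best known targets, and its own mRNA carries such an element. In skin, TTP is made by keratinocytes and by myeloid cells. The stretches below show the densest run of ATTTA pentamers within 30 bases of the annotated 3′ UTR (GENCODE M21, GRCm38) of *Zfp36* itself and of 2 cytokine genes read below, on the strand of each gene, with the pentamers in capitals. They are shown because this is the kind of element that the allele removes from *Zfp36* and that TTP reads in its targets; which bases the deletion takes was not analysed here.
Zfp36: tgggccctttATTTAtgacgactttATTTA
Cxcl2: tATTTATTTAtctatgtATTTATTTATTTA
Il23a: agtatagatgatggttATTTAttctATTTA
The *Zfp36* stretch lies at chr7:28376963-28376992 on the minus strand, in a 3′ UTR of 774 bases with 3 pentamers. *Cxcl2* has 11 pentamers in 1494 bases, and the stretch is chr5:90905327-90905356 on the plus strand. *Il23a* has 6 in 657 bases, and its stretch is chr10:128296187-128296216 on the minus strand.

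Hair content, which here means the level of hair transcripts, was closer in the 8 libraries than in all 10, but it was not matched. The Krtap score was 5.76, 6.17 and 6.02 for WT, and 7.18, 7.53, 7.98, 7.22 and 6.92 for *Zfp36*ΔARE, whereas the libraries left out had 2.60 (WT replicate 1) and 0.711 (WT replicate 3). The score was thus above every WT value in each *Zfp36*ΔARE library, with a gap of 0.755 between the nearest pair, and the difference of the means was 1.38 in the 8 libraries and 3.11 in the 10. The summed Krtap level ran from 7067 to 9469 CPM in WT and from 15509 to 45937 CPM in *Zfp36*ΔARE skin, against 492 and 47.6 CPM in WT replicates 1 and 3. Because these genes chose the libraries, they and the other hair genes are described here without a test. *Krtap19-1* had 280, 584 and 735 normalized counts in WT and 1916, 5080, 12404, 3914 and 3517 in *Zfp36*ΔARE skin, a log2 difference of 3.34, with 13.1 and 2.47 in WT replicates 1 and 3. *Krt71*, a keratin of the inner root sheath that moulds the growing shaft, had 164960, 195553 and 184784 against 326191, 314901, 348642, 297024 and 228490, a log2 difference of 0.74. For *Tchh*, which encodes trichohyalin of the same sheath, the values were 191077, 237752 and 179439 against 453196, 380567, 461010, 386562 and 216139 (log2 difference 0.90). *Krt71* and *Krtap19-1* did not overlap between the groups, and *Tchh* did, through *Zfp36*ΔARE replicate 5. These hair markers were abundant in all 8 libraries, but the level of hair transcripts was not equal between the genotypes. How much hair each biopsy held was not measured.

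Median log2 differences over the hair lists in the 8 libraries were 1.51 for 53 tested Krtap genes, 1.61 for 13 hair shaft keratins such as *Krt33a* (1.61), 0.87 for 10 inner root sheath genes and 0.67 for 12 regulators of the hair matrix such as *Dlx3* (0.82). Over 11 melanin synthesis genes, which are active in the pigment cells of the growing hair bulb, the median was 1.09, and *Gpnmb*, a melanosome protein, differed by 0.93. Over the 10 libraries the same medians were 2.21, 2.27, 1.42, 0.87 and 1.30. Both sets of values share the same 8 libraries, so they are given side by side only.

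**Figure D1:**
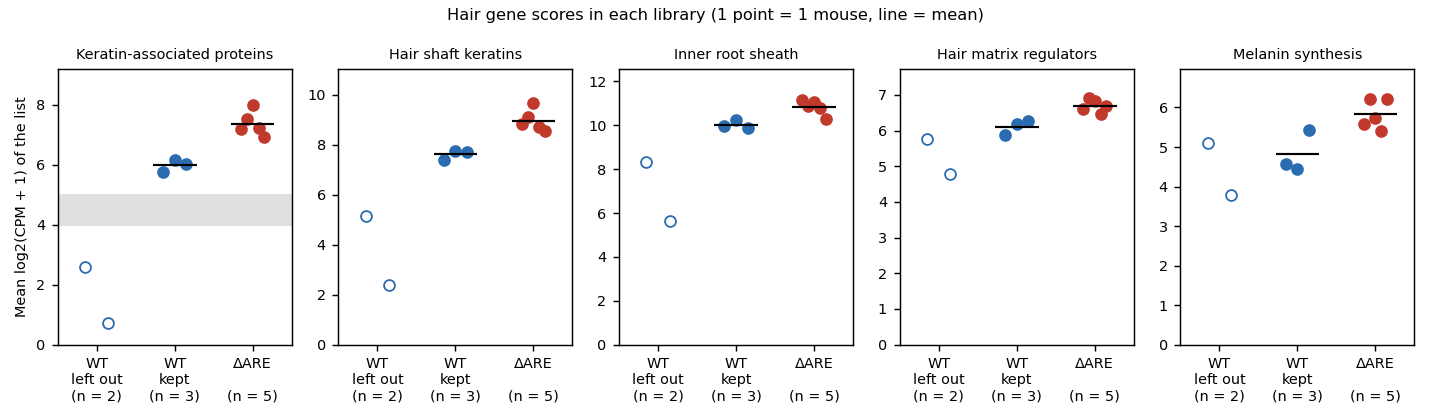
Mean log2(CPM + 1) of 5 hair gene lists in each library, with open points for WT replicates 1 and 3, filled blue points for WT replicates 2, 4 and 5, red points for the 5 *Zfp36*ΔARE libraries and lines for group means; the grey band marks a Krtap score of 4 to 5. The Krtap score of the kept WT libraries lies between 5.76 and 6.17, far above those left out but under the lowest *Zfp36*ΔARE value of 6.92.

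The 8 libraries held 19595035 to 36419573 counts each, with both groups overlapping in depth, and the biological coefficient of variation was 12.6%. A second feature moved with genotype. The summed counts of 4 Y-linked genes were at most 1 in *Zfp36*ΔARE replicate 1 and every WT library, and 3349 to 4262 in *Zfp36*ΔARE replicates 2 to 5. *Xist*, the RNA that silences an X chromosome in females, had 21170, 20163 and 16568 normalized counts in WT, 21214 in *Zfp36*ΔARE replicate 1, and 5.48, 16.6, 14.9 and 5.39 in the other *Zfp36*ΔARE libraries. Genotype and these marks of sex therefore differ in only 1 library, and *Zfp36*ΔARE replicate 1 is the one mouse that can be read against WT mice with the same marks. Its value stands first among the 5 *Zfp36*ΔARE values in each sentence that lists them.

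*Zfp36* mRNA was higher in *Zfp36*ΔARE skin, which checks the genotype labels. It had 2506, 2400 and 2062 normalized counts in WT (2323 ± 232, SD, n = 3). *Zfp36*ΔARE mice had 5827, 5245, 5883, 6213 and 4289 (5491 ± 757, SD, n = 5). The groups did not overlap, and replicate 1 lay among the other *Zfp36*ΔARE mice. The fold change was 2.36 (log2 1.24, standard error 0.13, adjusted p = 0.0029 in edgeR's quasi-likelihood test), and it stayed called with each library left out in turn. Its paralogs *Zfp36l1* and *Zfp36l2*, which bind the same elements, had log2 differences of −0.03 (standard error 0.07, adjusted p = 0.77) and −0.21 (standard error 0.10, adjusted p = 0.17). *Zfp36l3*, a paralog of the mouse placenta, had at most 4.23 normalized counts in any of these libraries and was not tested.

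Across the genome, 526 of 15724 tested genes (3.35%) were called, with an adjusted p under 0.05 in edgeR's quasi-likelihood test and a fold change over 2. Of these, 195 were higher (1.24%) and 331 lower (2.11%) in *Zfp36*ΔARE skin. The 195 include genes of the hair lists, which are only described here. Outside those lists, 137 of 15625 tested genes were called higher and 331 lower. The 137 still hold 19 genes within 100 kb of a Krtap gene and 4 Y-linked genes. With the adjusted p alone, 1080 of the 15724 genes were higher (6.87%) and 1424 lower (9.06%). The 3 WT values and the 5 *Zfp36*ΔARE values did not overlap for 470 of the called genes, and for 24.6% of all tested genes. DESeq2 called 617 genes (3.93%) and limma-voom 570 (3.63%) in the 8 libraries, and 5209 genes (33.1%) had an unadjusted p under 0.05 in edgeR. On simulated counts of this design, a larger share of the genes passing in DESeq2 was false than in edgeR or limma-voom. In the 10 libraries 1292 of 15543 genes (8.31%) were called, 260 higher (1.67%) and 1032 lower (6.64%). Single libraries weighed on the 8-library count: leaving out WT replicate 2 gave 196, leaving out WT replicate 4 gave 260, and leaving out *Zfp36*ΔARE replicate 2 gave 311. A fit with the Krtap score beside genotype called 0 genes, with 877 at an unadjusted p under 0.05 in edgeR. The score and genotype had a Pearson correlation of 0.91 over the 8 libraries, so within them the level of hair transcripts and the genotype cannot be told apart. Over the 526 genes called in the main fit, the median standard error on the log2 scale was 0.57 with the score and 0.28 without it. A change of direction with the score is therefore not read as a reversal. For the lists described below outside the hair lists, the median with the Krtap score in the fit is given beside the main one, and where it differs in direction or by over 1.5 times, also the median with a term for the presence of Y-linked counts. With that term the genotype difference is that of *Zfp36*ΔARE replicate 1 alone from the 3 WT mice, so each such median rests on 1 *Zfp36*ΔARE library.

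**Figure D2:**
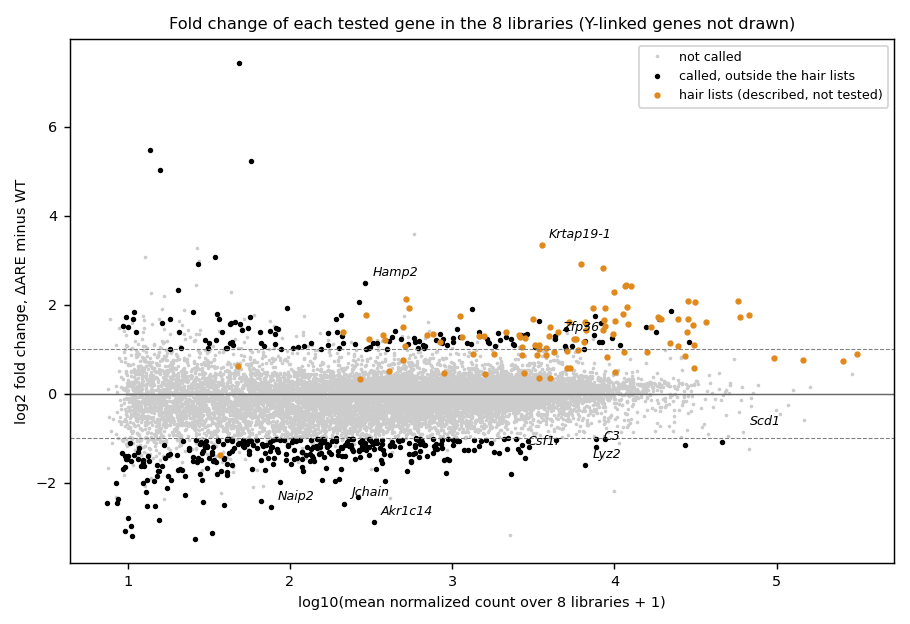
Log2 fold change (*Zfp36*ΔARE minus WT) of each tested gene against log10 of its mean normalized count plus 1 in the 8 libraries, with called genes outside the hair lists in black, hair genes in orange and dashed lines at a 2-fold change; Y-linked genes are not drawn. Hair genes lie above 0 with 1 exception and reach high counts, while the 331 genes called lower are spread over low and high counts.

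Macrophage transcripts were lower in *Zfp36*ΔARE skin. Of 18 macrophage markers, all tested, 12 were called lower and 0 higher, 15 were lower with the adjusted p alone, and the median log2 difference was −1.11, against 0.0079 over all tested genes. All 18 had a negative difference, from −1.61 to −0.06. Their summed level was 1157 to 2058 CPM in WT and 485 to 778 CPM in *Zfp36*ΔARE skin, with 587 CPM in replicate 1. In bulk RNA, fewer cells of a type and less RNA per cell cannot be told apart. *Csf1r*, the receptor for the growth factor CSF1 on which macrophages depend, had 5760, 3591 and 3115 normalized counts in WT and 1569, 1214, 1397, 2178 and 2066 in *Zfp36*ΔARE skin. No value overlapped between the groups, WT replicate 2 was the highest, and the log2 difference was −1.31 (standard error 0.25, adjusted p = 0.014, edgeR's quasi-likelihood test). *Lyz2*, the lysozyme of myeloid cells, had 14990, 9493 and 9606 against 3459, 2806, 2922, 4498 and 4966, a log2 difference of −1.61 (adjusted p = 0.0067). *Cd14*, the coreceptor for bacterial lipopolysaccharide, had 366, 205 and 222 against 90.6, 65.7, 97.7, 134 and 106, a log2 difference of −1.43 (adjusted p = 0.01). Both genes were set apart as *Csf1r* was, with WT replicate 2 on top. The mannose receptor gene *Mrc1* differed by −1.20, *Fcer1g*, the signalling chain of Fc receptors, by −1.11, and *Cd163*, the haemoglobin scavenger receptor, by −1.03. *Clec10a*, a galactose-type lectin of dermal macrophages and dendritic cells, differed by −1.07 and is counted among the dendritic cell markers, not among the 18. Each of these genes had an adjusted p under 0.05 in edgeR's test and no overlap between the groups.

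WT replicate 2 carried part of these macrophage values and of the *Clec10a* value. Without it, *Lyz2* (log2 −1.36) and *Cd14* (−1.12) stayed called, whereas the adjusted p from edgeR was 0.0504 for *Csf1r* (−0.995), 0.0541 for *Mrc1* (−0.90), 0.0623 for *Fcer1g* (−0.94), 0.0588 for *Clec10a* (−0.76) and 0.0759 for *Cd163* (−0.61). *Clec10a* also lost its call without WT replicate 4 (adjusted p = 0.0554) and was just under 2-fold (log2 −0.997) without *Zfp36*ΔARE replicate 2, and *Cd163* when WT replicate 4 (0.0593) was left out, or *Zfp36*ΔARE replicates 1 (0.0574), 2 (0.0678) or 3 (0.0526), in edgeR's test. The median of the 18 markers ranged from −1.32 to −0.86 over the fits that left out 1 library. It was −1.34 in the 10 libraries, −1.21 with a term for Y-linked counts, and −0.21 with the Krtap score in the fit.

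Mast cell transcripts were lower as well. Of 10 mast cell markers, 6 were called lower, 8 were lower and 1 higher with the adjusted p alone, and the median log2 difference was −1.19. *Cpa3*, the mast cell carboxypeptidase, had 1563, 1261 and 1646 normalized counts in WT and 647, 397, 506, 518 and 604 in *Zfp36*ΔARE skin, with no overlap (log2 −1.48, standard error 0.15, adjusted p = 0.0029, edgeR's quasi-likelihood test). The chymase gene *Mcpt4* had 2073, 1617 and 2237 against 903, 622, 737, 1021 and 851, also without overlap (log2 −1.26, adjusted p = 0.005). *Cpa3* and *Mcpt4* stayed called with each library left out. The exception among the markers was *Kit*, the stem cell factor receptor, which melanocytes and hair follicle cells also express. It was higher in *Zfp36*ΔARE skin by 0.30 on the log2 scale (adjusted p = 0.027), too small a difference to be called, and the adjusted p no longer passed the threshold without WT replicate 2 (0.104), WT replicate 4 (0.103) or *Zfp36*ΔARE replicate 2 (0.0508), in edgeR's test. The list median was −1.67 in the 10 libraries, −1.12 with the term for Y-linked counts and −0.26 with the Krtap score.

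Innate receptors and complement genes were lower in the main fit. Toll-like receptors, which sense microbial products, had 4 of 12 genes called lower. Their median was −0.96, or −0.80 with the term for Y-linked counts and −0.18 with the Krtap score. *Tlr2*, the receptor for bacterial lipoproteins, had 315, 233 and 224 normalized counts against 150, 119, 125, 145 and 137, without overlap (log2 −0.93, adjusted p = 0.0072, edgeR's quasi-likelihood test). *Tlr3*, a sensor of double-stranded RNA, had a log2 difference of −0.28 and did not pass (adjusted p = 0.093). Of 13 inflammasome genes 2 were called lower, with a median of −0.82 and all 13 negative. With the Krtap score the direction of this list turned, to a median of 0.36 with 3 negative. With the term for Y-linked counts the median was −0.66 with 12 negative. In this list *Naip2*, a cytosolic sensor of bacterial secretion systems, had 175, 143 and 148 against 25.7, 12.8, 35.5, 13.5 and 45.8 (log2 −2.56, adjusted p = 0.0055). The gap between the groups was wide, and the call held without each library. *Naip2* belongs to a family of near-identical genes, and how reads matching several genes were counted is not stated. Complement components had 8 of 17 genes called lower and 12 lower with the adjusted p alone, at a median of −0.63 (−1.10 with the term for Y-linked counts, −0.20 with the Krtap score). *C3*, the central component of the cascade, had 13147, 11068 and 11662 against 5261, 4003, 5422, 5302 and 5896, with no overlap and a call that held without each library (log2 −1.21, standard error 0.12, adjusted p = 0.0029). Another component, *C7*, which is named here after its values were seen, followed the marks of sex instead. It had 118, 30.4 and 65.6 in WT and 24.2 in *Zfp36*ΔARE replicate 1, but 948, 1120, 821 and 1508 in *Zfp36*ΔARE replicates 2 to 5 (log2 3.60, adjusted p = 0.054).

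**Figure D3:**
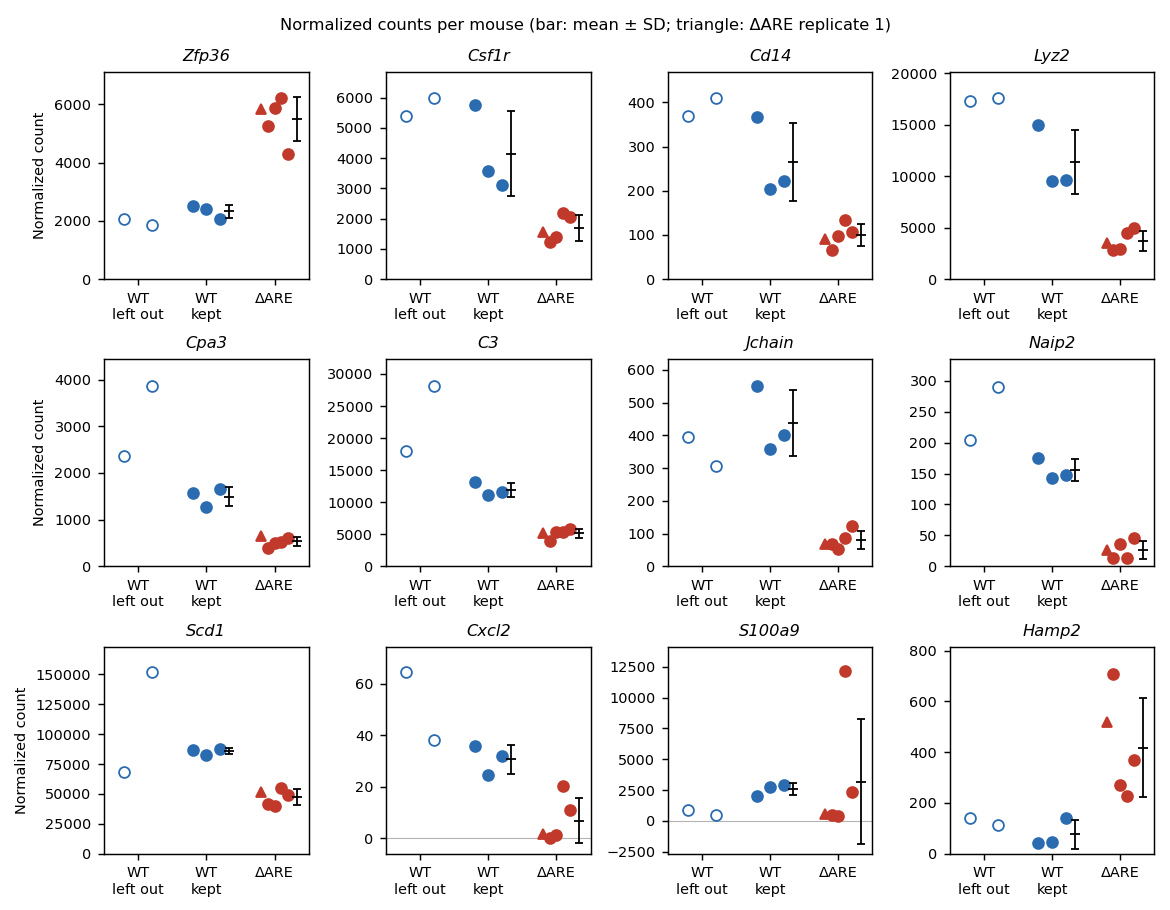
Normalized counts of 12 genes per mouse, with open points for WT replicates 1 and 3, filled blue points for WT replicates 2, 4 and 5, red points for *Zfp36*ΔARE mice (triangle, replicate 1) and bars for mean ± SD. *Zfp36* and *Hamp2* are higher and the other genes but *S100a9* are lower in every *Zfp36*ΔARE mouse than in the 3 WT mice kept; the tall bar of *S100a9* comes from replicate 4, at 12160.

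Cytokine and chemokine mRNAs showed fewer calls than the myeloid markers. Of 20 tested TTP target mRNAs, 0 were called by edgeR, 2 by DESeq2 and 5 by limma-voom. With the adjusted p alone 1 passed, *Il1a*, and at an unadjusted p under 0.05 there were 8, in edgeR, where 33.1% of all genes had one. The median was −0.52, and 16 of the 20 had a negative difference. *Il1a*, which encodes a cytokine of keratinocytes and myeloid cells, had 624, 662 and 590 normalized counts in WT and 360, 372, 345, 463 and 577 in *Zfp36*ΔARE skin (log2 −0.57, adjusted p = 0.046, edgeR's quasi-likelihood test). This p lost the threshold in 7 of the 8 fits with a library left out, with a highest adjusted p of 0.139. *Cxcl2*, a neutrophil attractant, had 35.7, 24.5 and 31.7 against 1.51, 0, 1.11, 20.3 and 10.8. The groups did not overlap, but the *Zfp36*ΔARE values ranged widely, and the log2 difference of −2.37 had a standard error of 0.82 and an adjusted p of 0.079; without replicate 4 the adjusted p was 0.022, from edgeR. *Il23a*, the specific subunit of interleukin-23, had 16.2, 17.6 and 26.5 against 7.55, 13.7, 6.66, 10.8 and 9.44, again without overlap (log2 −1.05, adjusted p = 0.053). In the 10 libraries edgeR's test called 6 of 20 TTP targets, at a median of −0.48, where 8.31% of all tested genes were called. Both *Cxcl2* (log2 −2.70, adjusted p = 0.019) and *Il23a* (−1.24, adjusted p = 0.012) were called there. WT replicates 1 and 3 had 64.4 and 38.3 normalized counts of *Cxcl2*, and 22.4 and 33.4 of *Il23a*. *Vegfa* had a log2 difference of 0.07 in the 8 libraries (adjusted p = 0.63). Of 31 chemokine ligands 4 were called lower, at a median of −0.52, and in the 10 libraries 10 of 30 were called, at −0.67. *Ccl9*, a macrophage chemokine, had 1895, 1745 and 960 against 611, 338, 386, 734 and 713, without overlap (log2 −1.47, adjusted p = 0.019); the call was lost without WT replicate 2 (0.0824) or WT replicate 4 (0.0657), in edgeR's test. Medians with the Krtap score in the fit were positive for both lists, at 0.25 for the TTP targets and 0.29 for the chemokines. With the term for Y-linked counts the chemokine median was −0.03, with 16 of 31 genes negative against 22 without the term, and the TTP target median was −0.48, with 12 of 20 negative.

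Antigen presentation genes were lower by less than 2-fold in the main fit, and this direction was not kept with the Krtap score. Among 9 MHC class II genes 0 were called by edgeR, DESeq2 or limma-voom, and 6 were lower with the adjusted p alone, at a median of −0.59. With the Krtap score the median was 0.22 and 0 of the 9 were negative, and with the term for Y-linked counts it was −0.46. *Cd74*, the invariant chain, had 17090, 14106 and 16804 normalized counts against 10915, 8258, 7215, 10402 and 11144 (log2 −0.74, adjusted p = 0.016 in edgeR's quasi-likelihood test), and *H2-Aa* differed by −0.65 (adjusted p = 0.016). With the Krtap score in the fit, *Cd74* was at 0.16 (standard error 0.18) and *H2-Aa* at 0.12 (standard error 0.17). Neither gene overlapped between the groups. Both lost the threshold without WT replicate 2 (*Cd74* 0.0654, *H2-Aa* 0.0652) or WT replicate 5 (*Cd74* 0.0503, *H2-Aa* 0.052), in edgeR's test. Dendritic cell markers had 1 of 10 called lower, *Clec10a*, which is read above beside the macrophage markers. Their median was −0.50, or 0.07 with the Krtap score and −0.45 with the term for Y-linked counts. Of 5 Langerhans cell markers 2 were lower with the adjusted p alone, at a median of −0.23, or 0.30 with the Krtap score and −0.27 with the term for Y-linked counts.

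Lymphocyte, neutrophil and interferon lists held no called gene. The 8 T cell markers had a median of 0.27 (0.25 with the term for Y-linked counts, 0.60 with the Krtap score) and a summed level of 25.3 to 32.1 CPM in WT and 26.1 to 35.4 CPM in *Zfp36*ΔARE skin; 1 of them had an unadjusted p under 0.05 in edgeR, and DESeq2 and limma-voom called 0. Of 5 B cell markers 3 were tested, at a median of 0.02 that was −2.29 with the term for Y-linked counts and 0.71 with the Krtap score, with 0 at an unadjusted p under 0.05 in edgeR and 0 called by DESeq2 or limma-voom. The 20 interferon-stimulated genes had a median of 0.23 (0.46 with the term for Y-linked counts, 0.84 with the Krtap score). Of the interferon list, 3 genes had an unadjusted p under 0.05 in edgeR, and DESeq2 called 1 and limma-voom 0. Neutrophil markers had 7 of 12 genes tested and a median of −0.38, with 1 gene at an unadjusted p under 0.05 in edgeR and 1 called by DESeq2 and by limma-voom each. With 1 library left out the median ran from −1.28, when *Zfp36*ΔARE replicate 4 was dropped, to 0.10, when WT replicate 2 was, and it was −0.63 when WT replicate 5 was dropped. It was −1.40 with the term for Y-linked counts and 2.22 with the Krtap score, so no direction is read from it. *S100a9*, a calcium-binding protein of neutrophils and of stressed keratinocytes, had 2007, 2777 and 2909 in WT and 563, 461, 407, 12160 and 2332 in *Zfp36*ΔARE skin. Its log2 difference was 0.31 (adjusted p = 0.88) and turned to −1.46 without *Zfp36*ΔARE replicate 4 (adjusted p = 0.13), in edgeR's test.

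Transcripts of the dermis were lower too in the main fit, mostly by less than 2-fold. Fibroblast markers had 1 of 14 called and 8 lower with the adjusted p alone (median −0.65, or −0.81 with the term for Y-linked counts and −0.12 with the Krtap score). *Dpt*, which encodes the matrix protein dermatopontin, had 8487, 7191 and 6412 normalized counts against 3599, 3313, 3861, 3983 and 4622, without overlap (log2 −0.93, adjusted p = 0.0047, edgeR's quasi-likelihood test). *Dcn*, the proteoglycan decorin, overlapped between the groups and did not pass (log2 −0.36, adjusted p = 0.12). Of 16 collagen genes 1 was called lower and 8 were lower with the adjusted p alone (median −0.47, or −0.89 with the term for Y-linked counts and −0.01 with the Krtap score). *Col14a1* passed (log2 −0.74, adjusted p = 0.0096), whereas *Col3a1*, a main fibrillar collagen, had 85510, 58888 and 88111 against 34037, 64342, 58332, 80170 and 84419 and did not (log2 −0.27, adjusted p = 0.53). *Zfp36*ΔARE replicate 1 was the lowest for *Col3a1*, and the other values overlapped with WT. Of 13 matrix proteases and inhibitors 2 were called lower, at a median of −0.49 that was −1.33 with the term for Y-linked counts and 0.24 with the Krtap score. The metalloproteinase gene *Mmp10*, the member of that list with the smallest p, had 15.4, 26.5 and 14.8 against 1.51, 0.913, 0, 4.06 and 5.39 (log2 −3.08, adjusted p = 0.013); without WT replicate 4 its adjusted p was 0.0546, from edgeR.

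Endothelial markers had 9 of 12 genes lower with the adjusted p alone, 11 at an unadjusted p under 0.05 in edgeR, 0 called by edgeR, DESeq2 or limma-voom, and a median of −0.62 (−0.68 with the Krtap score). *Vwf*, the von Willebrand factor of vessel walls, had 1264, 1192 and 1371 normalized counts against 767, 692, 646, 893 and 758, without overlap (log2 −0.77, adjusted p = 0.005, edgeR's quasi-likelihood test). *Pecam1* (log2 −0.78) and the lymphatic receptor gene *Flt4* (−0.88) passed likewise, as did *Pmp22*, a myelin protein gene (−0.53), and these 4 genes passed without each library too. Smooth muscle and pericyte markers had 7 of 9 lower with the adjusted p alone and a median of −0.59 (−0.52 with the Krtap score). Schwann cell markers had 1 of 9 called and a median of −0.29 (−0.35 with the term for Y-linked counts, −0.17 with the Krtap score). The 4 lymphatic markers had a median of −0.75, which was −0.55 with the term for Y-linked counts and 0.03 with the Krtap score.

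Fat and skeletal muscle lie under the dermis and enter a full-thickness biopsy in varying amounts. Adipocyte markers had 1 of 12 called and 9 lower with the adjusted p alone, at a median of −0.69. *Cidec*, a lipid droplet protein, had 3255, 4032 and 3620 normalized counts against 1477, 1913, 2095, 1631 and 1798, without overlap (log2 −1.03, adjusted p = 0.0031, edgeR's quasi-likelihood test). Its adjusted p passed without each library, while the log2 difference reached −0.95. Its log2 difference was −1.56 with the Krtap score in the fit, and the median of the adipocyte list was −0.99 there, unlike the macrophage and mast cell medians, which came nearer to 0. Of 15 skeletal muscle markers 2 were lower with the adjusted p alone, 1 of them called, at a median of −0.85 (−0.99 with the term for Y-linked counts, −1.88 with the Krtap score). *Myh4*, a fast myosin, varied from 52001 to 149244 in WT and from 11763 to 97798 in *Zfp36*ΔARE skin, with overlap (log2 −1.25, adjusted p = 0.19). *Acta1*, the actin of skeletal muscle, had a log2 difference of −0.95 (adjusted p = 0.029); it overlapped between the groups and lost the threshold without WT replicate 4 (0.0849), WT replicate 5 (0.0971) or *Zfp36*ΔARE replicate 2 (0.0664), in edgeR's test. In WT replicates 1 and 3 the summed muscle level was 27095 and 49979 CPM, against 10080 to 21704 CPM in the WT libraries kept, so leaving these libraries out lowered the muscle content of the WT group as it raised its hair content. The part of muscle and fat in the other differences was not tested.

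Of the epidermal lists, sebaceous and stem cell markers included, 1 gene was called. Basal keratinocyte markers had 0 of 10 called by edgeR, DESeq2 or limma-voom, 3 lower with the adjusted p alone and 5 at an unadjusted p under 0.05 in edgeR (median −0.31, or −0.25 with the term for Y-linked counts and 0.11 with the Krtap score), with *Krt5* at a log2 difference of −0.26 (adjusted p = 0.37, edgeR's quasi-likelihood test). Suprabasal and cornified envelope genes had a median of −0.03 and 1 call. The median was −0.45 without *Zfp36*ΔARE replicate 4, −0.57 with the term for Y-linked counts and 0.30 with the Krtap score. That call was *Tgm3*, a transglutaminase that crosslinks both the cornified envelope and the hair shaft, with 2493, 2811 and 1915 normalized counts against 6057, 5591, 11117, 6186 and 3825. It did not overlap between the groups (log2 1.45, adjusted p = 0.024), had 664 and 825 in WT replicates 1 and 3, and lost its call without WT replicate 2 (0.0858), 4 (0.0594) or 5 (0.0755), in edgeR's test. *Krt10*, the keratin of differentiating layers, had 177171, 196268 and 184289 against 82823, 94482, 88336, 170268 and 182013. *Zfp36*ΔARE replicates 1 to 3 were low and replicates 4 and 5 near WT, and the difference did not pass (log2 −0.59, adjusted p = 0.18). The 4 stress keratins had a median of −0.16 and 0 genes at an unadjusted p under 0.05 in edgeR. This median was −1.08 without *Zfp36*ΔARE replicate 4, −1.17 with the term for Y-linked counts and 1.81 with the Krtap score. Sebaceous gland markers had 6 of 13 genes lower with the adjusted p alone and a median of −0.43 (−0.38 with the term for Y-linked counts, −0.12 with the Krtap score). *Scd1*, the fatty acid desaturase of the gland, had 87151, 82934 and 87672 against 51242, 41410, 39810, 54748 and 49448, without overlap (log2 −0.86, adjusted p = 0.0062). *Fasn*, the fatty acid synthase, differed by −0.85 (adjusted p = 0.024) and lost the threshold without WT replicate 4 (0.0787) or 5 (0.0721), in edgeR's test. Of 10 hair follicle stem cell markers 2 were lower with the adjusted p alone, at a median of −0.26 that was −0.04 with the term for Y-linked counts and 0.02 with the Krtap score. *Cd34*, a surface protein of bulge stem cells and of vessels, had 6093, 5227 and 4865 against 3239, 2863, 3018, 2854 and 3037, a narrow range apart from WT (log2 −0.85, standard error 0.08, adjusted p = 0.0029), and passed without each library.

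Cell state lists had medians closer to 0. The 20 proliferation markers had 0 calls by edgeR, DESeq2 or limma-voom and a median of 0.22, all with a positive difference and 4 with an unadjusted p under 0.05 in edgeR. With the term for Y-linked counts, which reads *Zfp36*ΔARE replicate 1 alone against WT, the median was −0.07 with 15 of 20 negative. With the Krtap score it was 0.09. *Mki67* differed by 0.32 (adjusted p = 0.14, edgeR's quasi-likelihood test). For the next 4 lists the main medians were 0.11 for 10 EGFR ligands and receptors, 0.10 for 12 p53 targets, −0.03 for 18 cholesterol synthesis enzymes and −0.03 for 18 subunits of ATP synthase and complex I, with 0 called in each by edgeR, DESeq2 or limma-voom and 4, 4, 2 and 1 at an unadjusted p under 0.05 in edgeR. In the same order they were 0.09, 0.02, 0.18 and −0.15 with the Krtap score and 0.16, 0.19, −0.09 and −0.11 with the term for Y-linked counts. Of 12 NRF2 and xenobiotic response genes 1 was called, at a list median of 0.05 (0.23 with the term for Y-linked counts, 0.0032 with the Krtap score). *Cyp1a1*, the cytochrome P450 that oxidizes polycyclic hydrocarbons such as DMBA, had 480, 342 and 426 normalized counts against 193, 141, 124, 225 and 177, without overlap and with a call that held without each library (log2 −1.28, adjusted p = 0.0067).

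**Figure D4:**
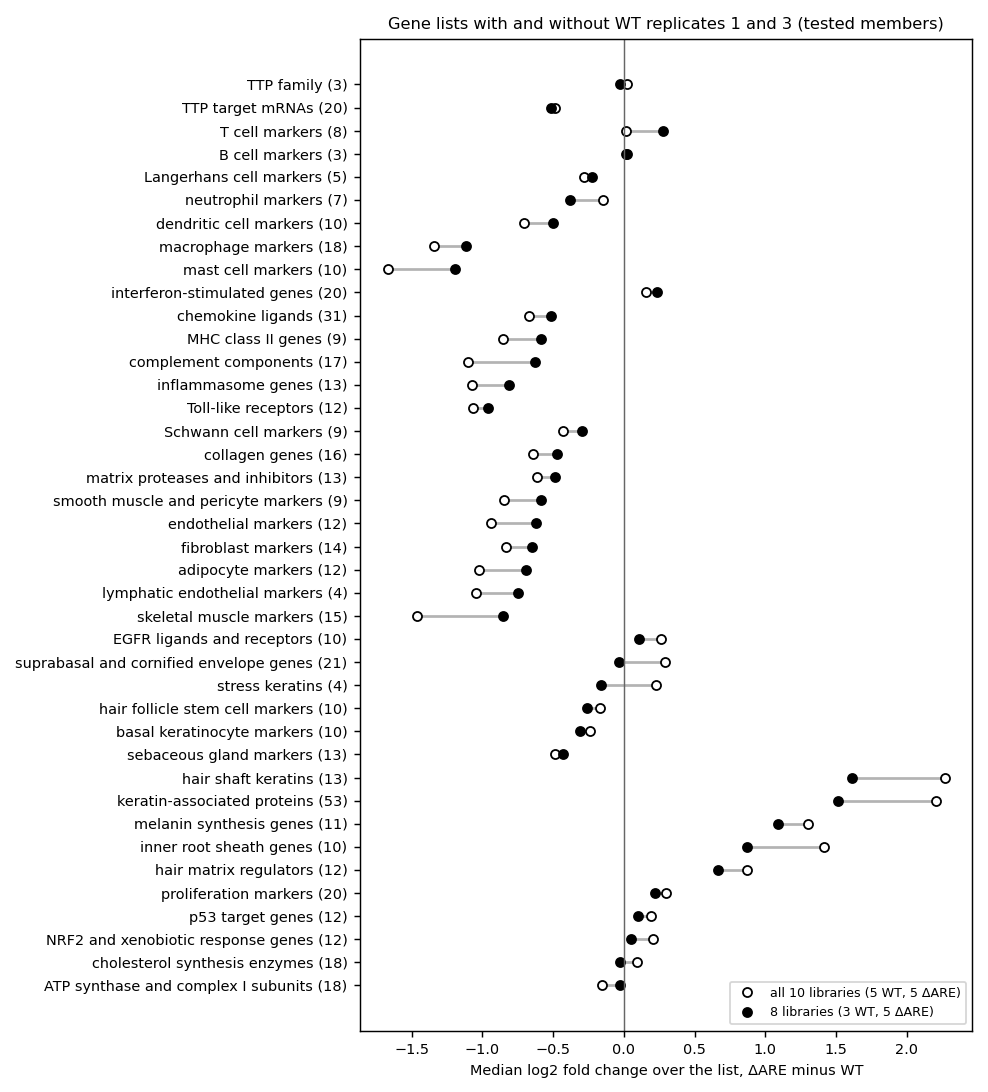
Median log2 fold change (*Zfp36*ΔARE minus WT) over the tested members of 40 gene lists (number in brackets), with filled points for the 8 libraries and open points for all 10. Macrophage markers are at −1.11 in the 8 and −1.34 in the 10 libraries, skeletal muscle at −0.85 and −1.46, and hair shaft keratins at 1.61 and 2.27; both fits share the 8 libraries.

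Of the 195 genes called higher, 114 were outside the hair lists, off the Y chromosome and more than 100 kb from any Krtap gene. The others were 43 Krtap genes, 15 genes of other hair lists, 19 genes within 100 kb of a Krtap gene and 4 Y-linked genes; the libraries were chosen by Krtap levels, so nothing is read from the number of hair genes. Outside the hair lists, among genes averaging 50 or more normalized counts and without overlap between the groups, the autosomal increases of greatest size were in *Hamp2*, *Trim40*, *Klk15*, *Gm11937*, *Gm10229*, *Mroh4*, *Gm11562*, *Sowaha* and *5430421N21Rik*. *Hamp2*, a hepcidin gene, had 43.0, 44.1 and 140 normalized counts against 517, 707, 270, 227 and 369 (log2 2.49, standard error 0.54, adjusted p = 0.022, edgeR's quasi-likelihood test). The kallikrein gene *Klk15* had 26.0, 31.4 and 46.6 against 85.3, 132, 182, 104 and 152 (log2 1.93, adjusted p = 0.0077). *Klk15* and *Mroh4* (log2 1.78) stayed called without each library, whereas *Hamp2* lost its call without WT replicate 2 (0.089) or 4 (0.0758) and *Sowaha* (log2 1.74), an ankyrin repeat gene, without WT replicate 2 (0.0571), in edgeR's test. *Hamp2* was the only one of the 9 whose WT replicates 1 and 3 (140 and 115) were not lower than the lowest of the WT libraries kept.

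The positions of 4 of these 9 genes tie them to hair clusters. *Gm11937* (chr11:99609794-99610431) and *Gm11562* (chr11:99619598-99620404), in the coordinates of RefSeq on GRCm38.p6, flank *Krtap2-4*, and *Gm10229* (chr16:89015277-89015846) lies between *Krtap22-2* and *Krtap6-1*. *5430421N21Rik* (chr15:101485130-101491512) is listed by RefSeq as *Krt83* and stands between *Krt86* and *Krt84*. These 4 genes count as outside the hair lists only by their symbols, so their values and calls are a description, as for the hair genes. Their log2 differences were 1.91, 1.74, 1.87 and 1.68 in this order, and all 4 fell below 0 with the Krtap score in the fit, as did *Trim40*. The calls of these 5 genes were lost without WT replicate 2, 4 or 5, with adjusted p-values from edgeR between 0.0503 (*Gm10229*, without WT replicate 4) and 0.133 (*Trim40*, without WT replicate 2). *Gm11937* was also lost when *Zfp36*ΔARE replicate 2 (0.0584) was left out, and *Trim40* without *Zfp36*ΔARE replicate 1 (0.0559) or 2 (0.065), in edgeR's test. The 19 genes near a Krtap gene that were called higher came from 47 tested, a count given as a description.

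Genes called lower held no hair gene, and 289 of the 331 were in none of the lists. By the same rule the 10 largest decreases were in *Akr1c14*, *Naip2*, *Jchain*, *Greb1*, *Lyz1*, *Atp6v1b1*, *Pla1a*, *Tnn*, *Nov* and *Ms4a4a*. *Jchain*, which encodes the joining chain of polymeric immunoglobulins made by plasma cells, had 550, 359 and 401 normalized counts against 67.2, 67.5, 53.3, 87.9 and 123 (log2 −2.47, standard error 0.25, adjusted p = 0.0029, edgeR's quasi-likelihood test). Every WT value was above every *Zfp36*ΔARE value by a wide margin, and WT replicates 1 and 3, at 395 and 305, lay with the other WT mice. *Ms4a4a*, a membrane protein of macrophages, had 539, 318 and 237 against 86.1, 67.5, 92.1, 128 and 116 (log2 −1.91, adjusted p = 0.0067). *Lyz1*, a lysozyme gene next to *Lyz2* with a near-identical sequence, had 583, 529 and 462 against 173, 92.2, 85.5, 46.0 and 119 (log2 −2.33, adjusted p = 0.0061). *Akr1c14*, a hydroxysteroid dehydrogenase, had 1060, 748 and 334 against 214, 60.2, 66.6, 78.4 and 52.6 (log2 −2.88, adjusted p = 0.012), so that *Zfp36*ΔARE replicate 1 stood nearest to WT. *Greb1*, an oestrogen-responsive gene, had 152, 164 and 80.4 against 27.2, 23.7, 20.0, 33.8 and 18.9 (log2 −2.41, adjusted p = 0.0032). For *Pla1a*, a phospholipase that acts on phosphatidylserine, the log2 difference was −1.96, for *Tnn*, the matrix protein tenascin-W, −1.96, for *Nov*, a secreted matricellular protein, −1.94, and for *Atp6v1b1*, a subunit of a proton pump, −1.98. *Jchain*, *Greb1*, *Lyz1*, *Pla1a* and *Ms4a4a* stayed called without each library. In edgeR's test, *Akr1c14* (0.0525) and *Nov* (0.0622) lost their calls without WT replicate 2, *Tnn* without WT replicate 2 (0.0749) or 4 (0.0559), and *Atp6v1b1* without WT replicate 2 (0.101), 4 (0.0785) or 5 (0.0676) or *Zfp36*ΔARE replicate 2 (0.0579).

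*Zfp36*ΔARE replicate 1, whose marks of sex were those of the WT mice, lay beyond all 3 WT values for 329 of the 331 genes called lower (99.4%) and 186 of the 195 called higher (95.4%). These genes were called with replicate 1 among the samples, so the shares describe the called genes and test nothing. It was also nearer to the WT mean than to the mean of the other *Zfp36*ΔARE mice for 20 of the former and 17 of the latter. With a term for the presence of Y-linked counts beside genotype, the genotype difference is that of *Zfp36*ΔARE replicate 1 from the 3 WT mice. Fold changes kept their sign in 99.0% of the called genes, a share that tests nothing for the same reason. The median standard error of these genes on the log2 scale rose from 0.28 to 0.45. That fit called 1 gene (0.00636% of those tested), with 3100 at an unadjusted p under 0.05 in edgeR. The called gene was *Cyp2f2*, a cytochrome P450 named here after its values were seen, at a log2 difference of −1.001 (adjusted p = 0.0496 in edgeR). It had 2163, 2338 and 2220 normalized counts in WT and 1119, 1010, 1083, 1062 and 1065 in *Zfp36*ΔARE skin, with a narrow spread inside each group, and its log2 difference without the term was −1.07 (standard error 0.05). *Zfp36* itself had a log2 difference of 1.33 (adjusted p = 0.065), *Csf1r* −1.41, *Cpa3* −1.21, *Jchain* −2.70 and *C7* −1.58 with the term. The last was of the opposite sign to the fit without it.

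**Figure D5:**
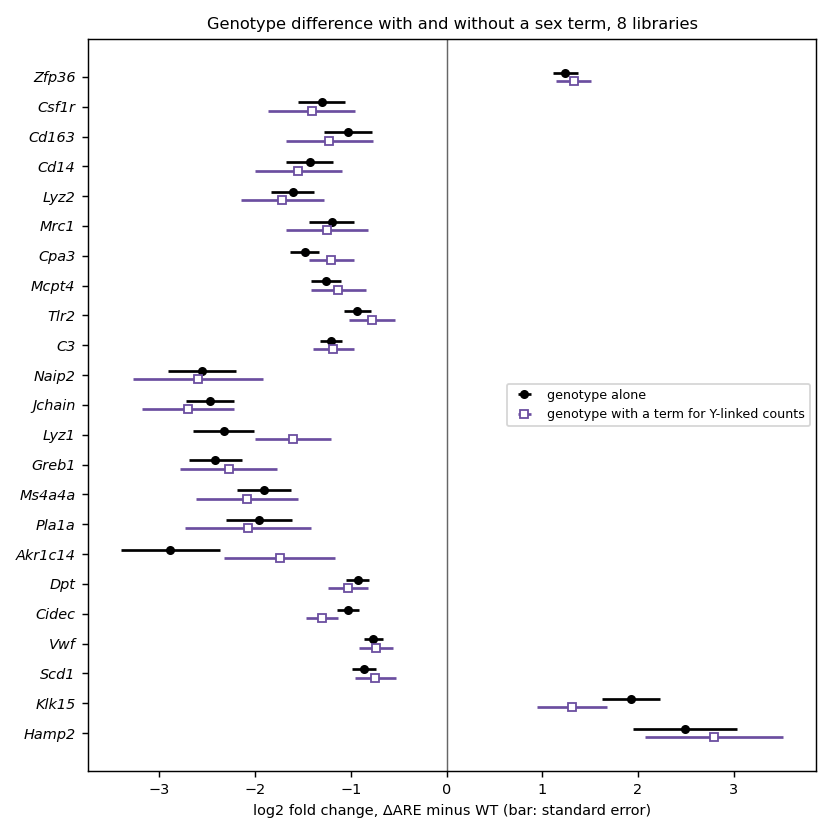
Log2 fold change (*Zfp36*ΔARE minus WT) with standard error for 23 genes in the 8 libraries, from the fit with genotype alone (black) and with a term for Y-linked counts (purple). The estimates keep their side of 0 for all 23 genes drawn, and most of the error bars are longer with the term, where *Zfp36* moves from 1.24 to 1.33 and *Akr1c14* from −2.88 to −1.74. With the term the difference is that of *Zfp36*ΔARE replicate 1 alone from the WT mice, so the kept side of 0 tests nothing about sex.

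*Cyp2f2* lies on the chromosome of the modified locus. Within 2 Mb of *Zfp36* on chromosome 7, 2 of 110 tested genes were called (1.82%), *Cyp2f2* and *Cyp2a5*, both lower. Within 5 Mb 10 of 205 were called (4.88%), 3 higher and 7 lower, and within 10 Mb 10 of 282 (3.55%). Over all tested genes the share was 3.35%. *Hamp2* was among the 10 called within 5 Mb. Chromosome 16, which carries a Krtap cluster, had 6.19% of its tested genes called, 25 higher and 8 lower. The X chromosome had 4.94%, 4 higher and 21 lower, and chromosome 13 had 4.9%, 6 higher and 22 lower. Chromosome 11, which also carries Krtap genes, had 4.73%, 41 higher and 23 lower. The libraries were chosen by Krtap levels, so nothing is read from the shares of chromosomes 16 and 11. Genotype and the marks of sex nearly coincide in these libraries, so nothing is read from the X share either.

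The share of genes with an AU-rich motif was lower among the called genes than among all tested genes, in shorter 3′ UTRs; these shares are a description and were not tested. The heptamer TATTTAT, searched on the transcribed strand of the longest annotated 3′ UTR of each gene, overlaps the pentamer ATTTA and was present in 29.4% of 14526 tested genes with a 3′ UTR (median length 1133 bases). Of genes called lower 27.0% held it (median length 932.5 bases), and of genes called higher 15.7% did (median length 420 bases), or 20.5% outside the hair lists. Per kilobase of 3′ UTR the groups were close, with 0.263 heptamers in genes called lower and 0.287 in genes called higher against 0.29 over all tested genes, and with 1.82 and 1.84 pentamers against 1.8. Among the lists described above, 95.0% of the TTP target mRNAs held the heptamer, 38.7% of the chemokine ligands, 16.7% of the Toll-like receptors, 11.1% of the macrophage markers and none of the 10 mast cell markers. *Cpa3* and the other mast cell mRNAs with the larger differences thus lacked this motif in the annotated 3′ UTR, whereas *Cxcl2*, whose stretch is printed above, had 7 copies and *Il23a* 5.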

How the data were processed

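RNA was sequenced from treated, tumor-free skin of 5 WT and 5 *Zfp36*ΔARE mice. Per the labels and the study's methods, reads with a mean quality under 20 were removed, the rest were aligned with STAR 2.5.2b to mm10, and the authors deposited raw counts of fragments per gene from featureCounts (Subread 1.5.0-p1) for 24454 genes; handling of strand and of reads that match several genes is not given in the sources used here, so members of multigene families are uncertain. The submitters' notes also name DESeq2. The 2 rows with no gene symbol were dropped, at under 0.001% of counts in each library. WT replicates 1 and 3 were left out by the Krtap score, with CPM raised by a pseudocount of 1. Counts of the other 8 libraries were fitted with edgeR 4.0.16 in R 4.3.3 (TMM, filterByExpr, robust quasi-likelihood test, genotype as the only term), and p-values were adjusted by Benjamini-Hochberg over all 15724 tested genes. Calls needed a fold change above 2 besides an adjusted p under 0.05. The script was tested on simulated data. The libraries, gene lists and tests were chosen with earlier results of these data known. Genes named are *Zfp36* paralogs, the hair and macrophage markers that describe the libraries, genes the study names for this experiment, the 10 largest changes in each direction among called genes outside the hair lists without overlap and averaging 50 or more normalized counts, members of each list with the highest 2 counts or the smallest p, Krtap genes with the most counts, and marks of sex. Alternatives were DESeq2 1.42.0, limma-voom (limma 3.58.1), other scalings and filters, glmTreat, terms for replicate, Y-linked counts and Krtap score, the libraries left out put back, and each library left out. Each mouse gave 1 library, no 2 of which agreed within sampling noise, and p-values measure the spread between mice with 6 residual degrees of freedom.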

Additional observations from a re-analysis of the deposited data

Results flagged for a closer look

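Among 74 named genes, 9 had 1 of the 5 *Zfp36*ΔARE libraries far from the other 4, with a gap over 0.71 of the whole range. For independent genes with normally distributed values, about 1 in 20, or 3.7, would do so. The named genes are not independent, as several lie in hair clusters and *Xist* and *Ddx3y* were named as marks of sex. The 9 is therefore a description and not a test against chance. *Zfp36*ΔARE replicate 3, which had the highest Krtap score, stood apart at 173880 normalized counts for *Krtap7-1* (others at most 81931), 57297 for *Gm10229* (at most 29757), 19374 for *Gm11562* (at most 9041), 46746 for *5430421N21Rik* (at most 22833) and 125 for *Sowaha* (at most 66.0). *Zfp36*ΔARE replicate 4 stood apart for *S100a9*, at 12160 against 407 to 2332. *Zfp36*ΔARE replicate 1 stood apart at 21214 for *Xist* (others at most 16.6), 0.755 for *Ddx3y* (others at least 1179) and 214 for *Akr1c14* (others at most 78.4).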

How the results depend on the processing

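The count of called genes was 444 to 617 under DESeq2, limma-voom, other scalings, other filters and non-robust dispersions, and 526 as reported. With glmTreat against a 2-fold change 0 genes were called (268 by unadjusted p under 0.05, and the lowest adjusted p was 0.343), and *Zfp36* (log2 1.24) had an adjusted p of 1. The term for Y-linked counts left 1 call (0 higher, 1 lower) and *Zfp36* at 1.33. With the Krtap score in the fit 0 genes were called, 0 higher and 0 lower, and *Zfp36* was at 0.996 (adjusted p = 0.53, edgeR); in all 10 libraries with that score, 9 (1 higher, 8 lower). The 10 libraries without it gave 1292 calls (1032 lower), WT replicate 1 put back 839 (612 lower) and WT replicate 3 put back 939 (793 lower). Leaving out 1 library gave 196 to 607 calls, 41 to 226 higher and 155 to 403 lower, and *Zfp36* from 1.16 to 1.32. The lowest counts came without WT replicate 2, and fewer mice in the fit are part of each. The cause of the other shifts was not tested.

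A fit blocked on replicate number called 159 genes, 78 higher and 81 lower, on 2 residual degrees of freedom. Same-numbered WT and *Zfp36*ΔARE libraries correlated at −0.27, 0.06 and 0.22, and the best match of each WT library had another number (0.24, 0.10 and 0.31). These values show no pairing by number, but so few cannot exclude it, and pairing by litter or handling was not tested.

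With the Krtap score in the 8-library fit, the log2 difference changed sign for *Krtap7-1* (−0.39), *Krt33a* (−0.25), *Tchh* (−0.030), *Cd74* (0.16), *H2-Aa* (0.12), *Cxcl2* (1.25), *Il1a* (0.12), *Vegfa* (−0.13), *Col3a1* (0.27), *Krt5* (0.33), *Krt10* (0.45), *Tgm3* (−0.17), *Trim40* (−0.48), *Gm11937* (−0.61), *Gm10229* (−0.16), *Gm11562* (−0.36), *5430421N21Rik* (−0.30), *Tnn* (0.18) and *Xist* (7.45). In all 10 libraries with that score it did so for *Krtap7-1* (−0.33), *Krt33a* (−0.19), *Krt71* (−0.19), *Tchh* (−0.27), *S100a9* (−0.12), *Gm10229* (−0.24), *Gm11562* (−0.13) and *5430421N21Rik* (−0.16). *S100a9* also turned under limma-voom (−1.14), the block (−0.10), the term for Y-linked counts (−2.19) and without *Zfp36*ΔARE replicate 4 (−1.46, with up to 0.59 without another library). That term turned *Xist* (0.14) and *C7* (−1.58). *Zfp36l1* turned in all 10 libraries (0.024) and with WT replicate 3 put back (0.0091), and *Vegfa* in these fits (−0.14 in each) and without WT replicate 2 (−0.040), its range with 1 library left out reaching 0.17. At this depth genes of few counts were the least precise, as *Cxcl2*, at most 35.7 normalized counts in the 8 libraries, with a standard error of 0.82 on the log2 scale. The other named genes kept their direction under each alternative in which they were tested.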
